A study of Mus musculus with 3 samples.

Results

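The comparison described here sets the transcriptome of mouse bone marrow (BM) cells after 5 days of LECT2 against that after 3 days, with 1 library at each time. All genes of the deposited table of these 2 libraries were taken, which gave 17132 rows of the 17559 rows that occur in any table of the series, and 2 of its 3 libraries. The mice were C57BL/6, 6 to 8 weeks of age, and the labels name no genetic change. Recombinant LECT2 was given under the skin once a day at 300 μg per kg for 3 or for 5 days, so that both groups were injected and differed in the number of daily doses. The third library came from mice at 0 days, without LECT2, and its levels are given beside those of single genes for orientation only. BM cells were flushed from the femur, tibia, pelvis and humerus, total RNA was enriched for polyadenylated RNA, and fragments were sequenced without molecular identifiers. The sources used here do not give the number of mice behind each library or whether RNA was pooled, and there was 1 library per time, so no difference has a replicate check and no p-value is given.

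LECT2 (leukocyte cell-derived chemotaxin 2) is a protein secreted by the liver that circulates in the blood, and the study examined it as an agent that expands haematopoietic stem cells and moves them out of the BM. BM is the site where stem and progenitor cells give rise to neutrophils, monocytes, red cells, platelets and B cells. Neutrophils mature through ordered stages, in which promyelocytes make primary granule enzymes, myelocytes and metamyelocytes make secondary and tertiary granule proteins, and the last stages express chemokine and formyl peptide receptors. Macrophages, neutrophils and osteolineage cells of the marrow also secrete cytokines and chemokines, many of them through the transcription factor NF-kB. The comparison of 5 with 3 days asks how the marrow RNA moved between the third and the fifth daily dose.

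Expression was measured as RPKM, the reads counted on a gene scaled to transcript length and to all reads counted on genes. The change of a gene is the log2 ratio of RPKM + 0.1 at 5 days over 3 days, a scale that understates the change of low genes. The 95% exact (Clopper-Pearson) interval beside it covers counting error only, since reads amplified by PCR without such identifiers can be copies of 1 molecule. A gene was counted as higher or lower at a change of at least 2-fold where either library held at least 1 RPKM of it, and the words rose and fell are kept for such changes. The tables held 15146983 reads on genes at 3 days and 15514673 at 5 days, at which depth 1 read on 1000 bases of transcript is worth 0.0660 and 0.0645 RPKM.

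The regulatory sequences shown here belong to members of the groups that moved in opposite directions. Each is the window from 250 bases before to 50 bases after the annotated start of a gene (RefSeq, GRCm38.p6), in lower case with the matches to the named motif in capitals. The first pair is that of Cxcl2, a chemokine that attracts neutrophils (chr5:90903649-90903948, plus strand), and of Nfkbia, the inhibitor that holds NF-kB in the cytoplasm (chr12:55492598-55492897, minus strand). Capitals mark the match to the NF-kB site. Between the 2 times Cxcl2 fell from 192 to 18.1 RPKM and Nfkbia from 401 to 172 RPKM.
Cxcl2: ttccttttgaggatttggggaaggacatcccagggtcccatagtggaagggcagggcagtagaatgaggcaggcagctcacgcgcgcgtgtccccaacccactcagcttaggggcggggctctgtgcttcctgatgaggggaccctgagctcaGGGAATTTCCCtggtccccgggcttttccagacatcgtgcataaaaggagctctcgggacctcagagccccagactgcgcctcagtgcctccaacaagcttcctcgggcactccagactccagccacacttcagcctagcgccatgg
Nfkbia: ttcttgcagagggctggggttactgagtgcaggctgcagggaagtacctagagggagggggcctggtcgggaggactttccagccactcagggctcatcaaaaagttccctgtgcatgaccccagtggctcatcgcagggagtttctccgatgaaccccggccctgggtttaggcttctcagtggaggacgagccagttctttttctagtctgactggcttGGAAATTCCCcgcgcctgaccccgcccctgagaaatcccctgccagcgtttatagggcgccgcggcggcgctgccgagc
The second pair is that of Plk1, a kinase of mitosis (chr7:122159185-122159484, plus strand), and of Aspm, a protein of the spindle poles (chr1:139454523-139454822, plus strand). Capitals mark CCAAT, the box bound by NF-Y, and TTTGAA, the cell cycle homology region, on either strand. The RPKM of Plk1 went from 30.3 to 62.6 and that of Aspm from 5.23 to 12.8.
Plk1: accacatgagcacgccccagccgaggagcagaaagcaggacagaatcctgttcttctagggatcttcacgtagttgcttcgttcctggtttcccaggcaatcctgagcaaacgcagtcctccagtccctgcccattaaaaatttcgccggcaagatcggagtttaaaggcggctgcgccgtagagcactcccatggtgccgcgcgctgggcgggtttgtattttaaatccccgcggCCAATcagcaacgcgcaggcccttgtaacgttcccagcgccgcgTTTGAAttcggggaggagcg
Aspm: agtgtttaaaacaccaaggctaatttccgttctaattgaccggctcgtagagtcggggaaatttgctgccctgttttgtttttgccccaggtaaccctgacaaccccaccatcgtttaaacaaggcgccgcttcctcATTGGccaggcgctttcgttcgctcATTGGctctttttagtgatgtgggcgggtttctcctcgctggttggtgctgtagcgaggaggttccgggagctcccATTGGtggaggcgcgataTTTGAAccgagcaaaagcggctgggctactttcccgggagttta
Of 11118 genes whose mean RPKM was 1 or more, 8844 had a window. The NF-kB site was found on either strand in 35.0% of the 20 cytokine genes with a window and in 42.1% of 19 NF-kB subunits and targets, compared with 5.99% of all 8844 genes. TTTGAA was found in 80.8% and CCAAT in 84.6% of 26 mitosis genes, compared with 14.5% and 43.4% of all genes. CCAAT is not particular to mitosis genes. It was found in 91.7% of 12 circadian clock genes and 100% of 13 cholesterol synthesis genes, lists without a 2-fold change. TATAAA, the TATA box, was found in 45.8% of 24 late neutrophil genes and in 8.48% of all genes. It was also found in 40.0% of 20 cytokine genes and in 44.4% of 9 dendritic cell genes, of which the latter list had no 2-fold change. A match is a run of letters and not a measured site.

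In all, 222 of 11375 genes rose by 2-fold or more (1.95%) and 393 fell (3.45%), which put 36.1% of the changes on the higher side. The genes that fell had a median of 15.5 RPKM at 3 days and 4.90 RPKM at 5 days, and the genes that rose had a median of 1.58 and 3.69 RPKM, beside a median of 11.2 RPKM at 3 days over all 11375 genes. Together the 393 lower genes held 14.7% of all reads at 3 days and 5.38% at 5 days, and the 222 higher genes held 0.572% and 1.23%. Of the 703 genes with at least 100 RPKM at 3 days, 84 were lower and 3 were higher. At least 4-fold changes were counted for 105 lower and 13 higher genes. With counting error alone, the whole interval lay beyond 2-fold for 247 of the lower and 23 of the higher genes.

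The scale of the whole library bears on these counts. The share of reads on the 10 most abundant genes was 10.4% at 3 days and 5.38% at 5 days. The median log2 ratio was 0.25 over the 11118 genes whose mean RPKM was 1 or more (hereafter the measured genes), and edgeR's TMM scaling brought it to 0.03. Under TMM scaling 69 genes rose and 569 fell, which put 10.8% on the higher side. Changes of gene lists are therefore read against the median of 0.25. Genes near the 2-fold limit were Cxcl12 (10.9 RPKM at 3 days and 5.38 at 5 days) just inside and Tlr5 (3.87 and 1.89 RPKM) just outside among lower genes, and Slc46a1 (0.597 and 1.30 RPKM) just inside and Troap (9.79 and 19.6 RPKM) just outside among higher genes.

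**Figure D1:**
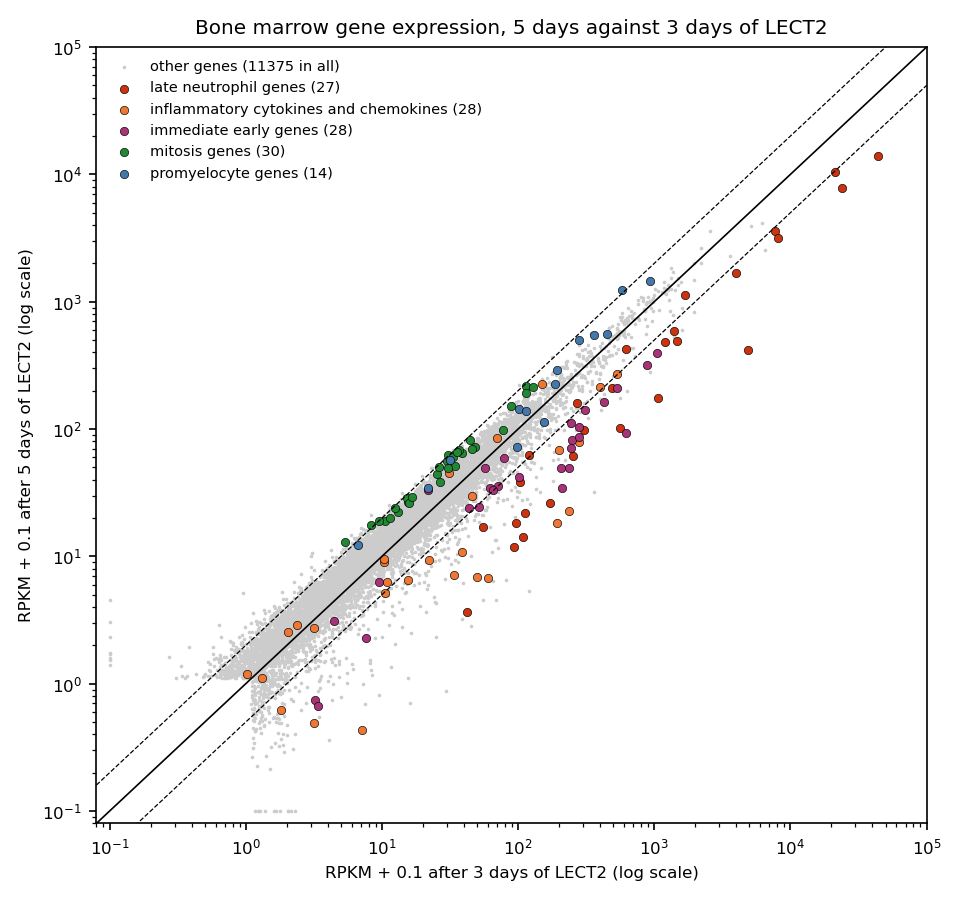
Each point is 1 of 11375 genes, with RPKM + 0.1 at 3 days on the horizontal axis and at 5 days on the vertical axis, both on a log scale. The solid line marks equal values and the dashed lines 2-fold changes. Below the lower dashed line lie 23 of 27 late neutrophil genes (red), 14 of 28 cytokines (orange) and 19 of 28 immediate early genes (purple), whereas all 30 mitosis genes (green) lie above the solid line.

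Marrow flushed from bone holds many cell types, and markers of its main lineages were abundant in both libraries. The RPKM of Mpo, an enzyme of myeloid progenitors, was 581 at 3 days and 1237 at 5 days, that of the B cell receptor component Cd79a was 614 and 532, and that of the alpha globin Hba-a1 was 1591 and 596. Of 9 hepatocyte genes only 3 had a row, and none reached a mean of 1 RPKM. The 7 skeletal muscle genes had summed levels of 16.2 and 13.3 RPKM. Xist had 4 reads at 3 days and 11 at 5 days, and the Y-linked gene Ddx3y was at 18.7 and 16.02 RPKM.

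Genes of late neutrophil maturation fell as a block between 3 and 5 days. All 27 measured genes of this list were below 0, with a median log2 ratio of -1.62, and 23 of them fell at least 2-fold, compared with 3.04% of the 11118 measured genes. All 28 genes of the list, Csf3r included, held 9.83% of all reads at 3 days and 3.84% at 5 days. In RNA from whole marrow, fewer cells of a type and less RNA per cell cannot be told apart. The smallest change among the 27 was that of Hp (haptoglobin), from 616 to 425 RPKM.

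The S100 proteins S100a8 and S100a9 form calprotectin, an abundant protein of the neutrophil cytoplasm. S100a9 was measured at 61729 RPKM before LECT2, 44195 after 3 days and 14032 after 5 days, a log2 ratio of -1.66 for 5 over 3 days (interval -1.67 to -1.65). S100a8 was measured at 28717, 23982 and 7789 RPKM, with a log2 ratio of -1.62. Both were highest at 0 days and lowest at 5 days. The related genes S100a11 (1961 and 836 RPKM at 3 and 5 days) and S100a6 (6126 and 1937 reads) lie outside the list, were chosen after their values were seen, and also fell.

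All 5 secondary granule genes fell, with log2 ratios between -1.37 and -1.03 and a median of -1.25. With the trend on gene length removed, Camp (-0.92) and Ngp (-0.98) were short of 2-fold. Between 3 and 5 days Ngp (neutrophilic granule protein) went from 21281 to 10391 RPKM and Lcn2, a siderophore-binding lipocalin, from 8085 to 3136 RPKM. Camp, the cathelicidin antimicrobial peptide, went from 7762 to 3609 RPKM, from a level of 14235 at 0 days. Ltf, the iron-binding lactoferrin, went from 4010 to 1686 RPKM. The matrix metalloproteinases, which appear later in the maturation series, had larger falls. Mmp8, the neutrophil collagenase, was at 1017, 1064 and 175 RPKM at 0, 3 and 5 days, and its level at 5 days was 6.06-fold lower than at 3 days. Mmp9, the gelatinase of tertiary granules, was at 353, 556 and 101 RPKM, and was 5.51-fold lower. For Mmp8 and Mmp9 the level at 3 days was at or above that at 0 days, and the fall came after day 3.

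Receptors of mature neutrophils had a median of -2.40 over 9 measured genes, close to the -2.46 of the metalloproteinases. Of the 9 receptors 8 fell and Trem3 had a log2 ratio of -0.96. Retnlg, a resistin-like secreted protein of mature neutrophils, was at 6507, 4839 and 419 RPKM at 0, 3 and 5 days, or 44714 reads at 3 days and 3962 at 5 days. Cxcr2, the receptor for CXC chemokines that draws neutrophils into the blood, was at 63.8, 112 and 21.9 RPKM, and its log2 ratio was -2.35 (interval -2.46 to -2.26). Its level was highest at 3 days and lowest at 5 days. The formyl peptide receptors Fpr1 (92.6 and 11.7 RPKM at 3 and 5 days) and Fpr2 (255 and 61.2 RPKM), which sense bacterial peptides, both fell. By the last time point Il1r2, the decoy receptor for IL-1, fell from 109 to 14.0 RPKM, Trem1, an activating receptor, from 170 to 26.3 RPKM, and the C-type lectin Clec4d from 41.7 to 3.57 RPKM. In this list Csf3r, the receptor for G-CSF, had a row with only 57 reads at 3 days and 20 at 5 days and did not reach a mean of 1 RPKM, so its level was not read.

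Genes outside the list that are also known from mature neutrophils were among the 15 largest falls, taken over genes with at least 5 RPKM in either library and over 3 reads in both. Stefin A genes encode small inhibitors of cathepsins, and Gm5483 had the largest fall of these, with 184 reads at 3 days and 5 at 5 days (29.3 and 0.778 RPKM, log2 ratio -5.07, interval -6.88 to -3.99). Stfa2l1 fell from 121 to 5.29 RPKM and Stfa2 from 16.1 to 0.610 RPKM. These genes are near-identical copies that may share reads, so the split between them is uncertain. Asprv1, a protease, fell from 80.8 to 6.45 RPKM, G0s2, an inhibitor of fat breakdown, from 364 to 32.2 RPKM, and the nicotinic acid receptor Niacr1 from 55.0 to 4.44 RPKM. Prok2, a secreted chemoattractant, fell from 7.37 to 0.596 RPKM. The genes Adam8, C5ar1 and Mxd1 were chosen after their values were seen. Adam8, a membrane protease, fell from 122 to 25.6 RPKM, C5ar1, the receptor for complement C5a, from 94.8 to 20.4 RPKM, and Mxd1, a repressor that opposes MYC in terminal differentiation, from 219 to 56.6 RPKM.

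At the other end of the same lineage, promyelocyte genes were higher at 5 days. The list of 14 measured genes had a median log2 ratio of 0.60, which was 0.34 above the median of all genes, and 12 of the 14 lay above that median. One gene, Mpo, rose at least 2-fold, compared with 1.68% of the 11118 measured genes. Mpo (myeloperoxidase) was at 435, 581 and 1237 RPKM at 0, 3 and 5 days, and its log2 ratio was 1.09 (interval 1.07 to 1.11), or 0.87 under TMM scaling. Elane, the neutrophil elastase, was at 1142, 923 and 1451 RPKM, and Prtn3, proteinase 3, at 312, 278 and 497 RPKM. For Elane and Prtn3 the level at 3 days was the lowest of the 3 libraries. Cebpa, the transcription factor that commits cells to the granulocyte lineage, went from 21.6 to 34.3 RPKM, whereas Cebpe, which drives the step to secondary granules, went from 97.6 to 72.2 RPKM.

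**Figure D2:**
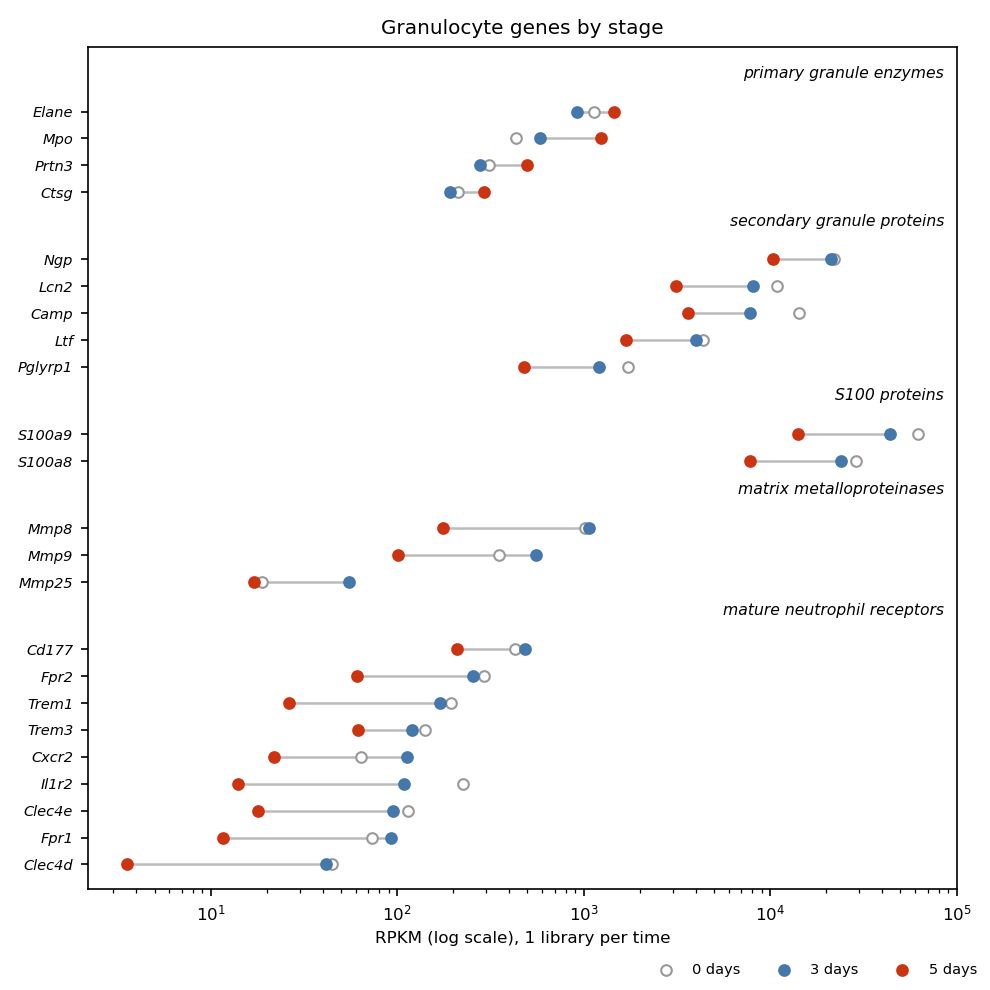
RPKM on a log scale of granulocyte genes grouped by the stage at which they are known to be expressed, with open circles for 0 days, blue for 3 days and red for 5 days (1 library each). The 4 primary granule genes have the red point to the right of the blue one, and the 19 genes of later stages have it to the left.

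Cytokine and chemokine genes of inflammation were lower at 5 days. Of 28 measured genes 14 fell at least 2-fold and 0 rose (3.04% and 1.68% of all measured genes), with a median log2 ratio of -1.01, and 23 lay below the median of all genes. The summed level of all 39 genes of the list went from 2424 to 1143 RPKM. Among the 28, Ccl3, Ccl4, Il1b, Cxcl10, Tnf and Il6 are 6 that the study plotted from these libraries, so they are not independent evidence of the direction of the list. Under TMM scaling 17 of the 28 fell. Over the same interval the summed level of the 28 late neutrophil genes went from 124341 to 45200 RPKM, while that of the genes of complement C1q and resident macrophage receptors was 195 and 202 RPKM. The part of the late neutrophil genes' fall in the cytokine values was not tested.

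The cytokine families were formed after the values were seen. Of 5 measured genes of the IL-1 family 4 fell. Il1b, the secreted form of interleukin 1 that activates endothelium and myeloid cells, was at 245, 237 and 22.8 RPKM at 0, 3 and 5 days and was 10.4-fold lower at 5 than at 3 days. Its level at 3 days was close to that at 0 days, and the fall came after day 3. Il1f9, which encodes IL-36 gamma and lies outside the fixed list, fell from 65.2 to 6.34 RPKM and Il1rn, the antagonist of the IL-1 receptor, from 33.7 to 7.04 RPKM, so agonists and the antagonist were lower together. Il18 went from 10.2 to 9.01 RPKM.

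The CXC chemokines that attract neutrophils had some of the largest falls of the cytokine list. Cxcl2 was at 379, 192 and 18.1 RPKM at 0, 3 and 5 days, with 3142 reads at 3 days and 304 at 5 days. Cxcl1 went from 102 reads to 5 (6.99 and 0.334 RPKM, log2 ratio -4.03, interval -6.04 to -3.12). Cxcl10, which attracts T cells and is induced by interferon, was at 106, 49.7 and 6.79 RPKM. These 3 genes were lower at each later time. Cxcl9, a close relative of Cxcl10, was at 1.93 and 2.44 RPKM at 3 and 5 days.

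CC chemokines moved less, and in both directions. Ccl3 (MIP-1 alpha), which inhibits the cycling of stem cells, was at 835, 534 and 269 RPKM in order of time, and its log2 ratio of 5 over 3 days, -0.99, was just short of 2-fold and passed it under TMM scaling (-1.21), as did Ccl6 (-1.14). Ccl4 fell from 199 to 68.5 RPKM and Ccl2, which attracts monocytes, from 15.5 to 6.398 RPKM. Ccl6 went from 399 to 212 RPKM. Ccl5, a product of T and NK cells, went from 31.0 to 45.1 RPKM, and Ccl9 from 69.6 to 84.7 RPKM.

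In the TNF family Tnf itself, the central inflammatory cytokine of macrophages, was at 92.0, 60.5 and 6.61 RPKM at 0, 3 and 5 days and was 9.15-fold lower at 5 than at 3 days (log2 ratio -3.17, interval -3.43 to -2.96). Tnfsf13b, the B cell survival factor BAFF, fell from 21.9 to 9.20 RPKM, and Ltb, a lymphotoxin subunit, went from 45.6 to 29.6 RPKM. Of cytokines that signal through gp130, Osm (oncostatin M) fell from 281 to 78.8 RPKM, after 279 at 0 days, and Il6 fell from 38.6 to 10.7 RPKM. Il6st, the gp130 chain of their receptors, is outside the list and was chosen after its value was seen, and it rose from 7.16 to 16.4 RPKM (log2 ratio 1.18, or 0.96 and short of 2-fold under TMM scaling). Il10, an anti-inflammatory cytokine, fell from 61 reads to 8. The highest log2 ratio of the list was 0.60, that of Tgfb1, which restrains the growth of stem cells and was at 104, 148 and 225 RPKM in order of time.

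**Figure D3:**
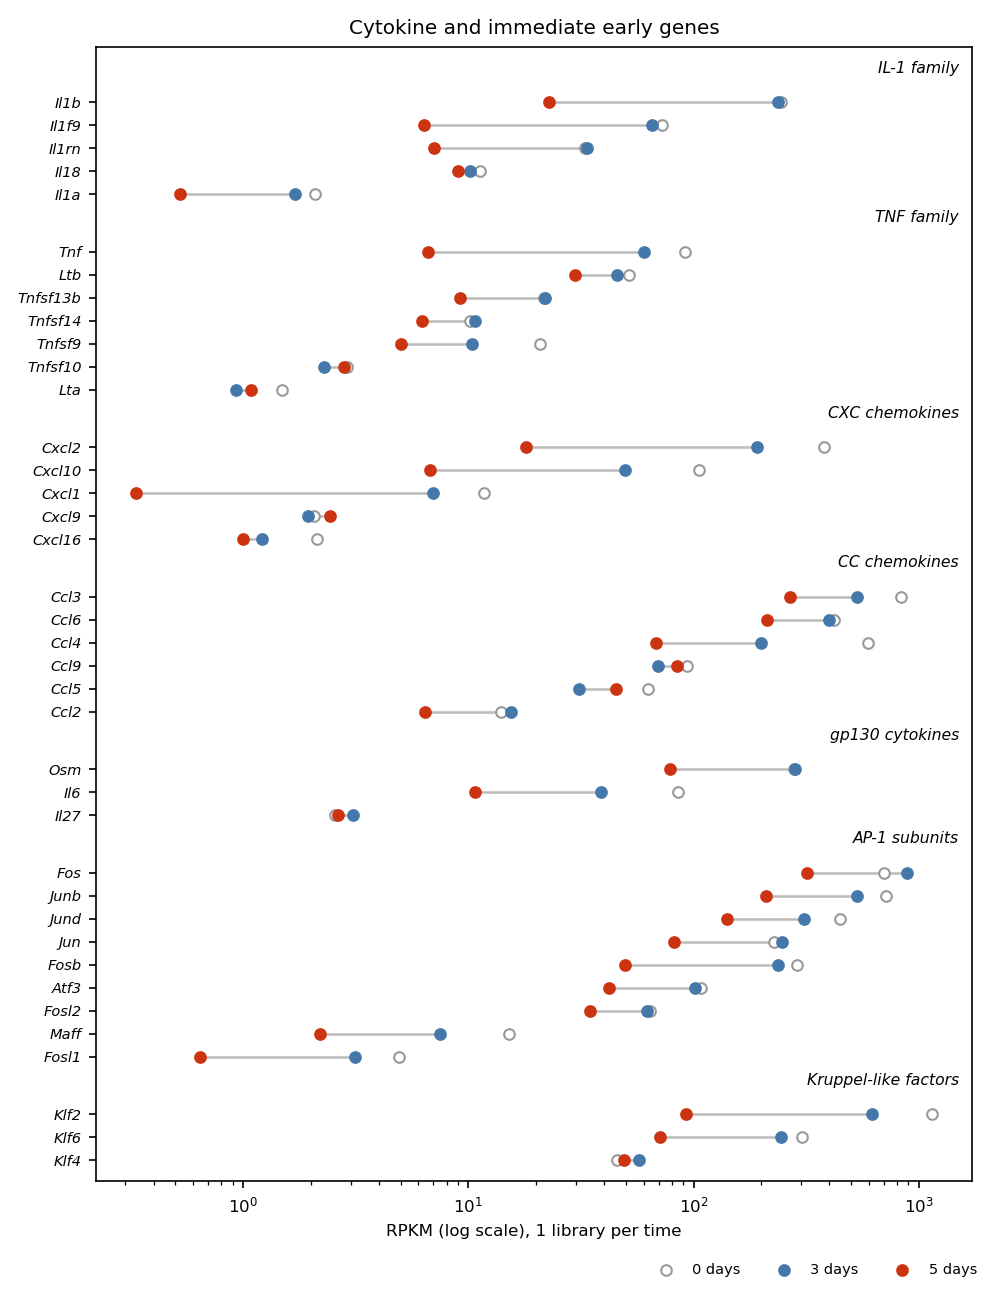
RPKM on a log scale of cytokine genes by family and of the AP-1 and Kruppel-like transcription factors, with open circles for 0 days, blue for 3 days and red for 5 days (1 library each). Of the genes drawn, Tnfsf10, Lta, Cxcl9, Ccl9 and Ccl5 alone have the red point to the right of the blue one.

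Of 24 measured NF-kB subunits and targets other than cytokines 8 fell at least 2-fold and 0 rose (3.04% and 1.68% of all measured genes). Their median was -0.39, and 23 lay below the median of all genes, with Nfkb1 alone above it. The inhibitors and feedback genes that NF-kB induces were among those that fell. Nfkbia was at 991, 401 and 172 RPKM at 0, 3 and 5 days, and Tnfaip3, the ubiquitin-editing inhibitor A20, at 170, 122 and 48.5 RPKM. Nfkbiz, an inducible nuclear cofactor, fell from 136 to 33.8 RPKM, and Ptgs2, the inducible cyclooxygenase that makes prostaglandins, from 39.2 to 6.03 RPKM. The subunits themselves did not reach 2-fold, with Rela at 41.9 and 43.6 RPKM, Rel at 13.8 and 13.3 RPKM and Nfkb1 at 47.0 and 57.4 RPKM. Irg1, the macrophage enzyme that makes itaconate, is outside the list and fell from 44.9 to 2.74 RPKM, the fifth largest fall among genes with at least 5 RPKM and over 3 reads in both libraries.

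Immediate early genes, which cells transcribe within minutes of a stimulus, were lower almost as a whole. Of 28 measured genes 19 fell at least 2-fold and 0 rose (3.04% and 1.68% of all measured genes), with a median of -1.37, and 27 lay below the median of all genes. AP-1 subunits, the FOS and JUN proteins that pair to bind DNA, fell in 8 of 9 cases. Fos was at 700, 890 and 319 RPKM at 0, 3 and 5 days, Fosb at 287, 237 and 49.7 RPKM, and Jun at 228, 248 and 81.9 RPKM. Of the zinc finger factors, Egr1 fell from 209 to 34.2 RPKM and Klf2, a factor of quiescent leukocytes and endothelium, from 617 to 92.8 RPKM, after 1147 at 0 days. Nr4a1, an orphan nuclear receptor, fell from 280 to 86.4 RPKM. Regulators that end such responses were lower with them, as Zfp36, which drives the decay of cytokine mRNA, fell from 1055 to 395 RPKM and Dusp1, a phosphatase of MAP kinases, from 430 to 164 RPKM. Myc was the exception and went from 21.5 to 32.9 RPKM, a log2 ratio of 0.61 (interval 0.48 to 0.74), or 0.39 under TMM scaling. The summed level of all 29 genes of the list went from 6369 to 2255 RPKM beside the fall of the late neutrophil genes, whose part in it was not tested.

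Genes of cell division were higher at 5 days without exception. All 30 measured mitosis genes and all 27 measured DNA replication genes had log2 ratios above the median of all genes, also under TMM scaling, with list medians of 0.82 and 0.72. In the mitosis list 3 genes passed 2-fold (1 under TMM scaling) and in the replication list none did (1, Gins2, with the length trend removed), compared with 1.68% of all genes. Mki67, the proliferation antigen Ki-67, was at 67.3, 115 and 218 RPKM at 0, 3 and 5 days, and Top2a, the topoisomerase that untangles chromosomes, at 81.2, 113 and 190 RPKM. Aspm had the highest log2 ratio of the list, 1.28 (interval 1.18 to 1.42), with 782 reads at 3 days and 1966 at 5 days. Plk1 was at 19.4, 30.3 and 62.6 RPKM, with a log2 ratio of 1.05, or 0.82 under TMM scaling. The lowest log2 ratio of the 30 was that of Cenpa, the histone variant of centromeres, at 0.35.

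Of the replication genes, Pcna, the sliding clamp of DNA polymerase, was at 332, 255 and 337 RPKM at 0, 3 and 5 days and Mcm7, a helicase subunit, at 114, 96.1 and 151 RPKM. The level of Pcna at 5 days was thus close to that at 0 days. Rrm2, the subunit of ribonucleotide reductase that supplies nucleotides, went from 91.7 to 161 RPKM and Gins2, a partner of the helicase, from 9.15 to 18.2 RPKM. Transcription factors of the cycle were chosen after their values were seen. Foxm1, which drives the genes of the G2 phase, was at 11.1, 23.3 and 49.4 RPKM and E2f8, a repressor of the E2F family, at 20.9, 32.2 and 64.7 RPKM, both just over 2-fold from 3 to 5 days and under it with TMM scaling (0.85 and 0.78). Genes of ribosome biogenesis were also chosen after their values were seen, and 8 of 10 lay above the median of all genes. Among them Utp20 rose from 3.57 to 7.55 RPKM, and the nucleolar proteins Ncl (74.3 and 114 RPKM) and Fbl (81.1 and 117 RPKM) were higher by less. Srm, the synthase of spermidine, rose from 22.9 to 49.3 RPKM. Under TMM scaling Utp20 (0.84) and Srm (0.88) were also short of 2-fold.

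Several monocyte genes rose while the list of macrophage and monocyte genes stayed near the other genes. The 33 measured macrophage and monocyte genes had a median of 0.17, 0.08 below the median of all genes and of opposite sign (-0.05) under TMM scaling, with 2 genes that rose (1 under TMM scaling) and 2 that fell (1.68% and 3.04% of all measured genes). Vcan, the matrix proteoglycan versican that classical monocytes make, had the largest rise among genes with at least 5 RPKM in either library and over 3 reads in both, with 164, 554 and 2040 reads at 0, 3 and 5 days (0.850, 2.94 and 10.6 RPKM, log2 ratio of 5 over 3 days 1.81, interval 1.71 to 1.98). F13a1, the A chain of coagulation factor XIII, was at 72.0, 177 and 365 RPKM, and the chemokine receptor Ccr2, which lets monocytes leave the marrow, at 45.1, 85.8 and 142 RPKM. Fn1 (fibronectin) and Msr1 (a scavenger receptor) were chosen after their values were seen. Fn1 was at 25.9, 102 and 223 RPKM and Msr1 at 4.19, 6.78 and 14.8 RPKM. Each of these 5 genes was higher at each later time. Under TMM scaling the log2 ratios of F13a1 (0.82), Fn1 (0.90) and Msr1 (0.89) were below 2-fold and that of Vcan (1.59) was not. Ly6c2, a marker of classical monocytes, was at 932, 993 and 1138 RPKM, and its log2 ratio of 0.20 was below the median of all genes and of opposite sign (-0.03) under TMM scaling.

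Of 9 measured genes of complement C1q and resident macrophage receptors, a group formed after the values were seen, 0 rose and 0 fell, with a median of 0.16. Of the 9, 7 lay above 0, while 3 lay above and 6 below the median of all genes. The complement subunit C1qa was at 57.6 and 54.4 RPKM at 3 and 5 days, C1qb at 48.9 and 52.3 RPKM, and C1qc at 48.6 and 48.8 RPKM. Siglec1, which encodes CD169 on marrow macrophages, went from 3.24 to 4.51 RPKM, with 315 and 450 reads, and Emr1, which encodes F4/80, was at 17.4 and 17.6 RPKM. The highest log2 ratio of the group was 0.53, that of the haemoglobin scavenger receptor Cd163. Cd14, the receptor for lipopolysaccharide that neutrophils share, fell from 99.3 to 36.9 RPKM, and Fcgr4, an Fc receptor of monocytes and neutrophils, from 40.7 to 16.7 RPKM. Lyz2, the lysozyme of all myeloid cells, went from 5120 to 3898 RPKM.

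**Figure D4:**
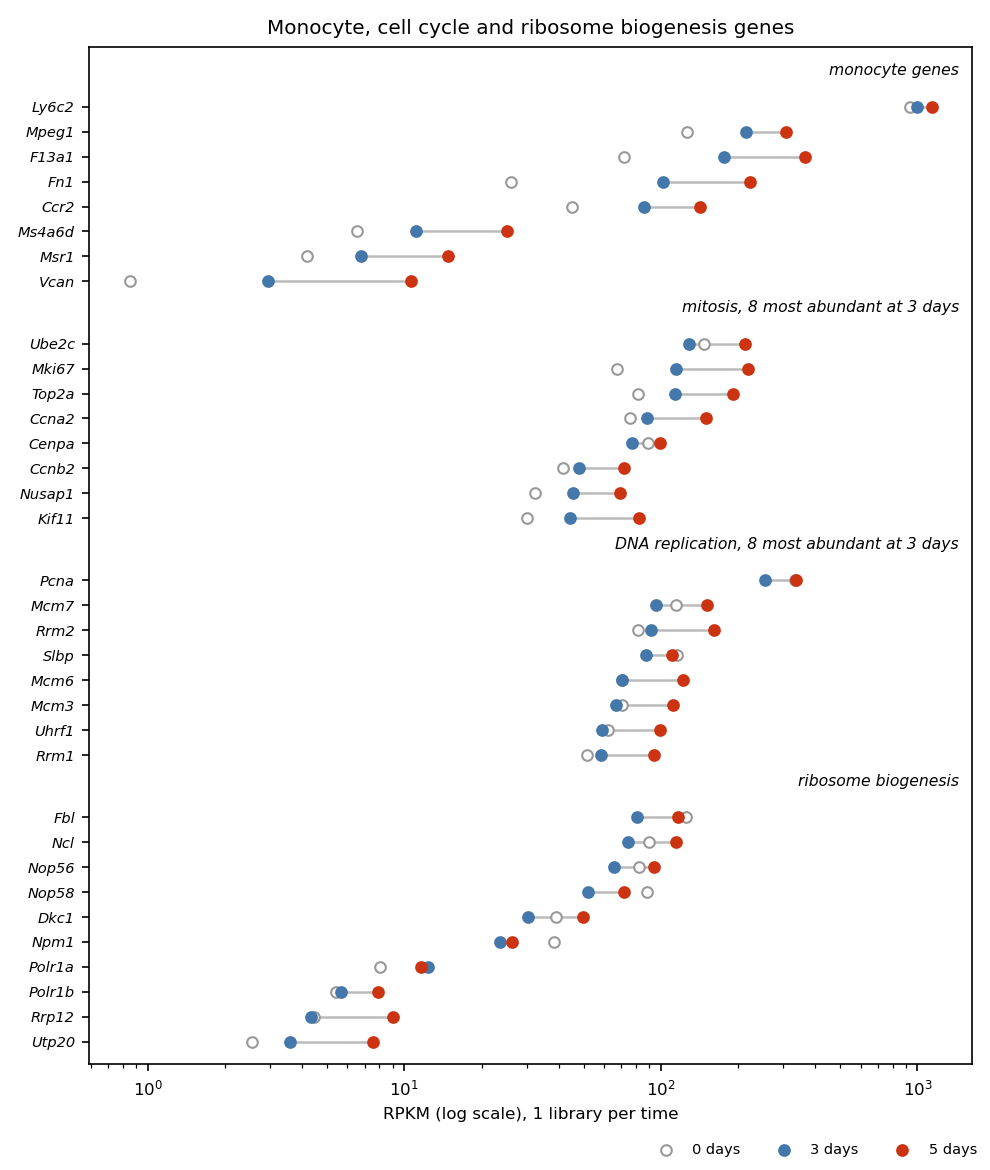
RPKM on a log scale of monocyte, mitosis, DNA replication and ribosome biogenesis genes, with open circles for 0 days, blue for 3 days and red for 5 days (1 library each). Every gene drawn except Polr1a has the red point to the right of the blue one.

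Of 32 measured erythroid genes 6 fell and 0 rose (3.04% and 1.68% of all measured genes), with a median of -0.07. The 6 were 4 globins, Alas2 and Bpgm. Hba-a1 was at 2253, 1591 and 596 RPKM at 0, 3 and 5 days, Hba-a2 at 1304, 930 and 281 RPKM and Hbb-b1 at 1696, 1387 and 527 RPKM, and the beta globin row named Beta-s, which is outside the list and was chosen after its value was seen, fell from 6491 to 2540.4 RPKM. These paralogs may share reads, so their split is uncertain, and the 4 named here fell by log2 ratios between -1.72 and -1.35. Alas2, the first enzyme of haem synthesis in erythroid cells, fell from 244 to 107 RPKM, and Bpgm, which sets the oxygen affinity of haemoglobin, from 98.7 to 29.0 RPKM. Markers of earlier erythroid stages did not fall. The erythropoietin receptor Epor went from 6.24 to 9.06 RPKM, the transcription factor Gata1 from 438 to 613 reads and Car1, a carbonic anhydrase of early erythroid cells, from 43.1 to 64.8 RPKM. The membrane proteins, such as band 3 (Slc4a1, 183 and 174 RPKM), had a median of 0.08.

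Osteolineage genes, which mark cells that build bone, were low at both times and lower at 5 days. Of 16 genes 8 reached a mean of 1 RPKM, and 5 of these fell and 0 rose (3.04% and 1.68% of all measured genes), with a median of -1.28. The 5 include Bglap, which had 2 reads at 5 days, and the median was also -1.28 with Bglap set to the floor of 3 reads. Col1a1, a chain of type I collagen, was at 13.7, 21.3 and 5.45 RPKM at 0, 3 and 5 days and Col1a2, its partner chain, at 12.8, 14.8 and 5.01 RPKM. Spp1 (osteopontin) fell from 17.8 to 7.31 RPKM and Sparc (osteonectin) from 15.1 to 6.14 RPKM. Bglap (osteocalcin) had 30 reads at 3 days and 2 at 5 days. Alpl, the alkaline phosphatase of osteoblasts, was the exception at 3.04 and 3.48 RPKM, and the defining factors Runx2 and Sp7 stayed under 0.5 RPKM in both libraries. The summed level of all 16 genes went from 91.2 to 37.0 RPKM.

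The genes of stem cell retention and mobilization bear on the question of the study. Of 13 measured genes 1 rose and 2 fell (1.68% and 3.04% of all measured genes), with a median of 0.12 (-0.10 under TMM scaling). Cxcl12, the stromal chemokine that holds stem cells in the marrow, was at 15.9, 10.9 and 5.38 RPKM at 0, 3 and 5 days, and its log2 ratio of -1.004 was just past 2-fold. Its receptor Cxcr4, expressed by many marrow cells, was at 422, 371 and 274 RPKM. Kit, the receptor for stem cell factor, was at 8.19, 10.01 and 16.1 RPKM and the integrin chain Itga4 at 20.2, 41.9 and 65.5 RPKM. Vcam1, the ligand of that integrin on stromal cells and macrophages, was at 29.4, 39.9 and 48.3 RPKM. Mmp9 had the lowest log2 ratio of this list, -2.46. Met, a receptor tyrosine kinase, had the highest, 1.29 (interval 1.14 to 1.49), at 1.61, 3.69 and 9.18 RPKM. The paper names c-MET beside CD209a as a receptor that LECT2 can bind. In its experiments a block of CD209a, but not a c-MET inhibitor, reduced the effect of LECT2 on stem cell number. Cd209a, which the study examined as a receptor for LECT2, was at 10.4, 8.68 and 8.38 RPKM, and the interval of its log2 ratio, from -0.34 to 0.25, included 0.

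Markers of haematopoietic stem and progenitor cells had a median of 0.48 over 13 measured genes, 0.23 above the median of all genes, with none at least 2-fold changed. Cd34 went from 14.6 to 21.9 RPKM, after 24.1 at 0 days, and Cdk6, a kinase that lets stem cells leave quiescence, from 9.19 to 15.9 RPKM. Gata2 (25.8 and 28.3 RPKM) and Lmo2 (54.5 and 60.7 RPKM) had log2 ratios of 0.14 and 0.16, which were below the median of all genes. Prom1 had the lowest log2 ratio, -0.25. Under TMM scaling 8 of the 13 genes lay above 0. With a minimum of 5 RPKM the median of the list was 0.26 and that of all genes 0.24.

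Among lymphoid genes, T and NK cell genes lay mostly above the other genes and B cell genes near or below them. The 25 measured T and NK cell genes had a median of 0.46, with 18 above the median of all genes and 1, Cd5, that rose (1.68% of all measured genes). Under TMM scaling Cd5 (0.81) was short of 2-fold and no gene of the list passed it. Nkg7, a granule membrane protein of cytotoxic cells, was at 120, 74.7 and 114 RPKM at 0, 3 and 5 days and Gzma (granzyme A) at 50.7, 22.5 and 32.6 RPKM. Cd3d, a subunit of the T cell receptor complex, went the other way, from 80 reads at 3 days to 53 at 5 days, whereas Cd3e went from 3.13 to 4.35 RPKM. For Nkg7 and Gzma the level at 3 days was the lowest of the 3 libraries. The 15 pro-B and pre-B cell genes had a median of -0.01, with Vpreb3, a surrogate light chain component, at 273 and 269 RPKM. All 14 mature B cell genes lay below the median of all genes, with a median of -0.20. Of these 1 fell (3.04% of all measured genes), the lymph node homing receptor Ccr7, from 36.2 to 12.8 RPKM. Cd69, an early activation antigen that holds lymphocytes in tissue, is outside these lists and fell from 180 to 56.7 RPKM.

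Genes of platelets and their precursors went in both directions. Of 14 measured genes 2 rose and 3 fell (1.68% and 3.04% of all measured genes). The median of 0.17 was -0.04 under TMM scaling, -0.39 with a minimum of 5 RPKM and 0.42 with no minimum. Pf4 and Ppbp, chemokines stored in platelet granules, went from 20 to 59 and from 69 to 192 reads, or from 2.15 to 6.18 and from 4.12 to 11.2 RPKM. At 0 days they were at 11.3 and 9.31 RPKM, so that the level at 3 days was the lowest of the 3 libraries. The 3 that fell are not confined to platelets. Thbs1 (thrombospondin 1), which monocytes and neutrophils also make, fell from 265 to 97.4 RPKM, Cd9, a tetraspanin, from 130 to 54.4 RPKM, and Selp (P-selectin) from 95 to 28 reads. Itga2b, the platelet integrin chain, went from 8.34 to 11.2 RPKM. Basophil, mast cell and eosinophil genes had a median of 0.14 (-0.08 under TMM scaling), with the eosinophil granule protein Prg2 at 2202 and 2630 RPKM, and 2 of 15 genes fell (1 with the length trend removed, and 3.04% of all measured genes), Hdc, which makes histamine, from 185 to 66.2 RPKM, and the cytokine Il4, from 16 to 7 reads, with an interval of the log2 ratio (-2.75 to 0.13) that included 0.

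Rises were fewer and smaller, and most of the 15 largest belonged to no list. Plcb1, a phospholipase C that acts below G protein-coupled receptors, was at 0.715, 1.73 and 5.17 RPKM at 0, 3 and 5 days, with 187 reads at 3 days and 571 at 5 days. Itga1, the integrin chain that binds collagen, was at 0.635, 2.91 and 8.16 RPKM. Klc1, a light chain of the motor kinesin, was at 14.5, 8.25 and 21.0 RPKM, and Rcor3, a corepressor, at 1.90, 3.05 and 7.74 RPKM. Plcb1, Itga1 and Rcor3 were higher at each later time, whereas Klc1 was lowest at 3 days. Slc15a2, a peptide transporter, rose from 423 to 1023 reads and Cltb, a clathrin light chain, from 101 to 241 reads. Under TMM scaling Cltb (0.98) and Dmkn (log2 ratio 1.22, and 0.9987 under TMM scaling) missed the 2-fold limit. The small nucleolar RNA Snord16a had 4 reads at 3 days and 14 at 5 days.

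**Figure D5:**
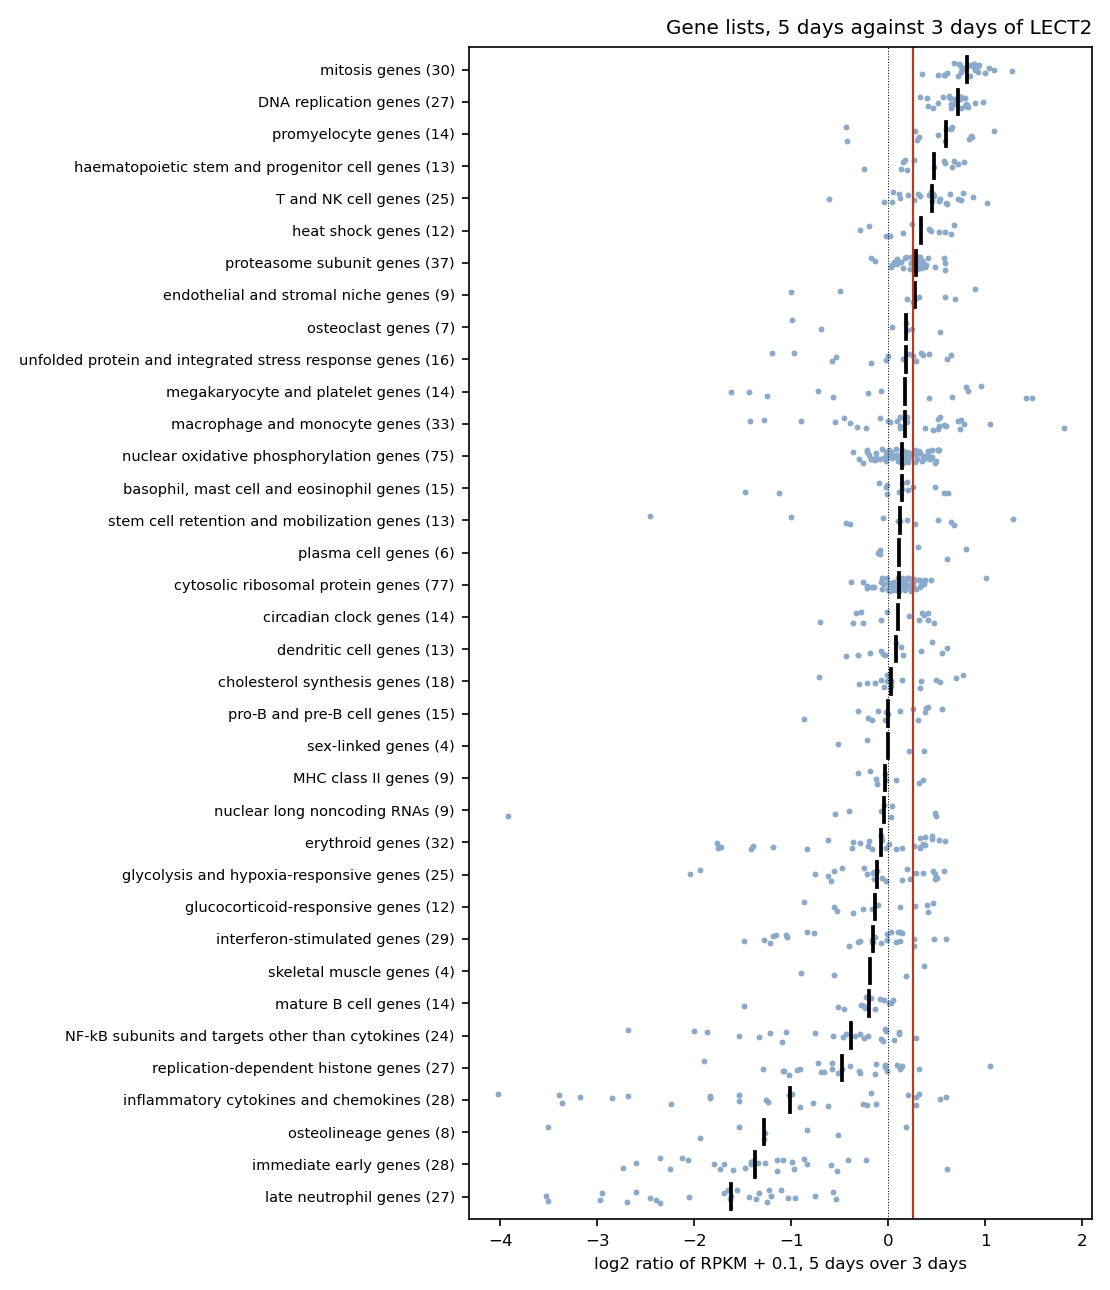
Each point is a measured gene (mean of at least 1 RPKM) of the list named at the left with its number of genes, and the horizontal axis is the log2 ratio of RPKM + 0.1 at 5 over 3 days. Black bars mark list medians, the red line the median of all 11118 genes (0.25) and the dotted line 0. Late neutrophil, immediate early, osteolineage and cytokine lists have medians of -1.62, -1.37, -1.28 and -1.01, and mitosis and DNA replication lists the highest, 0.82 and 0.72.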

How the data were processed

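RNA of flushed bone marrow cells was sequenced as 1 library per time (0, 3 and 5 days). The authors deposited, for each pair of libraries, a table with the read count of each gene (whole numbers, no normalization), and per the file headers the RPKM of each gene. As deposited, RPKM was the count per listed gene length and per reads on all listed genes (scaled to RPKM), except in 14 rows at 3 days. Per the labels' processing notes reads were placed on the mm8 build. The study's methods name Cufflinks for quantitation, whereas the deposited counts are whole numbers, and which step made them is not given. The aligner, the counter's treatment of strand and the number of mice per library are not given in the sources used here. The authors' log2 ratio, P value and FDR columns were not used.

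Genes without reads, listed by the authors at 0.01 RPKM, were set to 0. Of several rows of 1 symbol (218 symbols) the most abundant was used, which left 16846 symbols, and RefSeq gave a name by gene ID to 13 of 22 unnamed rows. Ratios used a pseudocount of 0.1, a minimum of 1 RPKM in either library and a 2-fold limit. List medians were taken over members whose mean RPKM was 1 or more. Genes with 3 reads or fewer in a library were treated as at the floor and no linear fold was given for them, while their log2 ratios stayed in list counts and medians. Since there was 1 library per time, no test was run. Total counts were 15146983 at 3 days and 15514673 at 5 days, so intervals (95%, Clopper-Pearson) cover counting error only.

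The comparison and its 37 gene lists were chosen with earlier results of these data known. By rule the text named the 15 largest rises and falls among genes with at least 5 RPKM and over 3 reads in both libraries, the 6 cytokines plotted by the study, and in each list the 4 most abundant members and those with the highest and lowest ratio, some of which are not reported here. Genes of known function were added after their values were seen, among them Cxcl2, Cxcr2, Fpr1, Il1rn, Il1r2, Trem1, Nfkbiz, Ccr2, C1qa, Prtn3, Lcn2, Ltf and Gata1, as were the subgroups by role, stage or family.

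Promoter windows of 250 bases before to 50 after the start came from RefSeq (GRCm38.p6). The cAMP response element TGACGTCA, the AP-1 site TGACTCA, the ETS site GGAAGT, the NF-Y box CCAAT, the TATA box TATAAA, the cell cycle homology region TTTGAA, the GATA site GATAA, the SP1 site GGGCGG, the CArG box and the NF-kB site were searched on both strands, overlapping matches included. The alternatives were pseudocounts of 1 and 0.01, TMM (edgeR 4.0.16) and median-of-ratios (DESeq2 1.42.0) scaling of the counts, scaling without the 100 most abundant genes, summed rows, removal of the length trend (lowess, span 0.3, statsmodels 0.14.6), minimums of 5 RPKM and of none, and a 4-fold limit. Python 3.11.15, pandas 2.3.3, numpy 2.4.6, scipy 1.17.1, matplotlib 3.10.9 and R 4.3.3 were used, and the steps were tested on simulated data.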

Additional observations from a re-analysis of the deposited data

How the results depend on the processing

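With 1 library per time no replicate could be left out. No paired analysis was possible because each time has 1 library and no result comes from a test. The number of genes at least 2-fold higher, 222 as reported, was 52 with a pseudocount of 1, 69 with TMM scaling, 63 with median-of-ratios scaling, 120 with scaling without the 100 most abundant genes, 94 with a minimum of 5 RPKM, 578 with no minimum and 13 at a 4-fold limit. The number at least 2-fold lower, 393 as reported, was 258 with a minimum of 5 RPKM, 717 with no minimum and 105 at a 4-fold limit. The share higher among changed genes, 36.1% as reported, was, in the order given for the higher genes, 15.4%, 10.8%, 9.81%, 20.1%, 26.7%, 44.6% and 11.02%. The median of all genes, 0.25, was 0.0294 with TMM and 0.0197 with median-of-ratios scaling. With TMM, median-of-ratios and scaling without the 100 most abundant genes, the median of immediate early genes was -1.59, -1.60 and -1.48, that of late neutrophil genes -1.85, -1.86 and -1.73, and that of promyelocyte genes 0.37, 0.36 and 0.49. That of DNA replication genes was 0.50 and 0.49, and that of mitosis genes 0.59 and 0.58, with TMM and median-of-ratios scaling. Removal of the length trend put late neutrophil genes at -1.43, and no minimum put osteolineage genes at -0.84. No direction of these results was reversed. TMM scaling moved 240 of 310 named genes by more than the average reach of their counting interval to either side, all of them down. Of the 129 named genes with a 2-fold change 20 then missed the limit. Of all 310 named genes 30 changed sign. Removal of the length trend took 7 of the 129 below the 2-fold limit, among them Camp, Ngp, Hist1h1c, E2f8 and Utp20. TMM scaling changed the sign of 12 of 36 list medians, and removal of the length trend that of 3. The scalings differ by construction by 1 constant on the log2 scale, apart from the pseudocount. Genes with few reads, such as Cxcl1 and Bglap at 5 days, have wide intervals at this depth.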

Other observations

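Interferon-stimulated genes, which mark the response to interferons, went in part with the cytokines. Of 29 measured genes 7 fell and 0 rose (3.04% and 1.68% of all measured genes), with a median of -0.16, and 25 lay below the median of all genes. Rsad2 (viperin), an antiviral enzyme, was at 60.7, 77.6 and 27.5 RPKM at 0, 3 and 5 days, and Isg15, a ubiquitin-like modifier, at 57.8, 49.3 and 21.6 RPKM. Mx1 was at 8.47 RPKM at 3 days and 12.9 at 5 days. Slfn4, a schlafen gene of myeloid cells chosen after its value was seen, fell from 179 to 39.2 RPKM, and its paralogs may share its reads. Of 25 glycolysis and hypoxia-responsive genes 2 fell and 0 rose (3.04% and 1.68% of all measured genes), with a median of -0.11. The lactate exporter Slc16a3 fell from 116 to 28.0 RPKM and the glucose transporter Slc2a3 from 106 to 27.6 RPKM.

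The medians of further lists are to be read against the 0.25 of all genes. The 77 cytosolic ribosomal protein genes had a median of 0.11 (-0.11 under TMM scaling), the 75 nuclear oxidative phosphorylation genes 0.15 (-0.07), the 37 proteasome subunit genes 0.29, the 12 heat shock genes 0.34, the 16 genes of the unfolded protein and integrated stress response 0.18 (-0.04), the 18 cholesterol synthesis genes 0.02 (-0.20), the 14 circadian clock genes 0.10 (-0.12) and the 12 glucocorticoid-responsive genes -0.14, with 8 of the 12 below the median of all genes. With the length trend removed the median of the ribosomal protein genes was 0.25, as was that of all genes. The ribosomal protein genes above the median of all genes then went from 14 to 39 of 77. Those of oxidative phosphorylation went from 25 to 41 of 75. Among cell types not described so far, the 9 MHC class II genes had a median of -0.03, the 13 dendritic cell genes 0.08 (-0.14), the 6 plasma cell genes 0.11 (-0.10), the 7 osteoclast genes 0.18 (-0.04), and the 9 endothelial and stromal niche genes 0.28. The 4 sex-linked genes had a median of -0.01 and the 4 skeletal muscle genes -0.19.

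Most replication-dependent histone mRNAs, Rn7sk and small nucleolar RNAs lack a poly(A) tail, and these libraries were selected for polyadenylated RNA. The 27 measured replication-dependent histone genes had a median of -0.47, with 5 that fell and 1 that rose (3.04% and 1.68% of all measured genes). Under TMM scaling 7 fell and 0 rose, and with the length trend removed 3 fell and 1 rose. Hist1h1c, a linker histone, went from 110 to 54.0 RPKM (log2 ratio -1.02, or -0.995 with the length trend removed), and Hist1h2ao was at 244 and 270 RPKM. The 9 nuclear long noncoding RNAs had a median of -0.04. Rn7sk, the lowest of that list and the small nuclear RNA that holds the elongation factor P-TEFb inactive, had 1132, 347 and 23 reads at 0, 3 and 5 days. The snoRNA Snora81 had 26, 49 and 108 reads.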
